A study of Mus musculus with 5 samples.

Results

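The Wnt signalling genes of the mouse iridocorneal angle, the ring of drainage tissue between iris and cornea, were examined in DBA/2J mice and in Gpnmb+ mice. The set was defined by name: protein-coding genes whose symbol is Wnt, Fzd, Sfrp, Dkk or Rspo followed by a number, together with Lrp5, Lrp6, Wif1, Axin2, Lef1, Nkd1 and Notum. It held 48 of the 56941 genes in the deposited count table. They were 19 Wnt ligands, 4 R-spondins, 10 Frizzled receptors, 2 co-receptors, 5 secreted antagonists that bind Wnt proteins, 4 Dickkopfs and 4 genes used as readouts of the pathway. The rule uses no measured value.

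DBA/2J mice carry the Tyrp1b allele and a premature stop in Gpnmb, a transmembrane glycoprotein of pigment cells and macrophages, and they develop pigment dispersion and glaucoma. The comparison strain, DBA/2J-Gpnmb+/SjJ (Gpnmb+ below), shares the DBA/2J background and Tyrp1b but has a functional Gpnmb. All mice were 12 months old and of both sexes according to the labels. The study pooled 3 mice for each library and sequenced 3 libraries of DBA/2J and 2 of Gpnmb+, although the library names of the Gpnmb+ pools carry only 2 animal numbers each. Iris and ciliary body were dissected away, and remnants of them stayed attached. Each pool averages over several mice, so the spread below is between pools, and a lower level can reflect fewer cells of a type or less RNA per cell, which bulk RNA cannot tell apart.

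Wnt proteins are secreted lipid-modified ligands. In the canonical branch they bring a Frizzled receptor together with Lrp5 or Lrp6, which stabilises beta-catenin and lets it act with TCF and LEF factors on target genes, and R-spondins strengthen this signal by protecting Frizzleds from removal at the cell surface. Sfrps and Wif1 bind Wnt proteins outside the cell, Dkk1 and Dkk2 block Lrp5 and Lrp6, and Axin2, Nkd1 and Notum are induced by the pathway and feed back on it. In the anterior eye the pathway is known for its part in forming the ciliary margin and cornea, and in the trabecular meshwork, the filter through which aqueous humor leaves the eye, Sfrp1 is known as a factor that can raise intraocular pressure.

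Uniquely aligned reads counted on genes summed to between 43900661 and 49837758 per pool. At this depth 3 counts correspond to 0.0591 to 0.0699 CPM (counts scaled to the TMM-scaled library size). This is an approximate floor that covers counting error only. Gpnmb, which checks the genotype labels, had 2128, 2411 and 2021 in DBA/2J pools 1, 2 and 3, against 118392 and 104723 in Gpnmb+ pools 1 and 2 on the scale of normalized counts used throughout (CPM with TMM-scaled library sizes, multiplied by the mean library size). Its log2 fold change was -5.67 (SE 0.14, adjusted p = 0.000231). Log2 fold changes are DBA/2J minus Gpnmb+, so that a positive value is higher in DBA/2J. The X-inactivation transcript Xist had normalized counts of 621, 0 and 2510.2 against 7161 and 8668 in the same order of pools, and the Y-linked gene Ddx3y 3759.8, 4498 and 1627 against 0 and 3.79. The Gpnmb+ pools thus held almost no Y-linked RNA, which conflicts with the stated sexes, since the study lists males among the Gpnmb+ mice. All DBA/2J pools held Y-linked RNA, so sex and genotype cannot be told apart in any comparison below. Across genes, which are not independent replicates, log2 CPM correlated between pools at 0.979 to 0.987 within a genotype and at 0.967 to 0.979 between genotypes.

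Of the 48 genes, 42 reached the minimum of 10 counts in at least 1 pool and were tested. Wnt8b and Dkk4 had no count in any pool, and Wnt1, Wnt3, Wnt7a and Wnt8a had at most 4 counts in a pool, at or close to the floor of 3. Dkk3 was higher in DBA/2J and Rspo3 was lower, by edgeR's quasi-likelihood test. A call required a p-value of 0.05 or less after Benjamini-Hochberg adjustment over all tested genes and a fold change of 1.5 or more. The other 40 were not called. Over all 19713 tested genes the same rule called 0.796%, with 0.502% higher and 0.294% lower. Both adjusted p-values, 0.0494 and 0.0475, stood just under the threshold. With the CPM of Ddx3y as a covariate, tried after the sex-linked counts were seen, no member was called, and only 3 of all tested genes were. In that fit the log2 fold changes were 1.54 for Dkk3 (adjusted p = 0.441) and -2.06 for Rspo3 (adjusted p = 0.55). Ddx3y was high in every DBA/2J pool and almost absent from both Gpnmb+ pools, so this covariate largely follows genotype. A loss of calls is therefore likely with it for any gene, and the fit cannot separate sex from genotype.

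Differences lay in both directions. The log2 fold changes of the 42 tested members ran from -1.92 to 1.58 with a median of -0.06, against -0.02 over all tested genes, and 20 were above 0 and 22 below (47.4% of all tested genes were above 0). The values of the DBA/2J pools did not overlap those of the Gpnmb+ pools in 23 members (54.8%), 9 of them higher and 14 lower in DBA/2J. Over all tested genes, pools did not overlap in 34.5%, with 17.3% higher and 17.2% lower. Without adjustment of the p-value, edgeR marked 11 members (26.2%) and 8.67% of all tested genes. The 4 on the higher side (4.2% of all genes) were Dkk3, Fzd5, Fzd8 and Notum, and the 7 on the lower side (4.48% of all genes) were Rspo3, Rspo4, Dkk1, Dkk2, Nkd1, Wnt3a and Wnt6. DESeq2, the tool used in the study, called more genes overall. Its Wald test called 9 members, 4 higher (Dkk3, Fzd5, Fzd8 and Notum) and 5 lower (Rspo3, Rspo4, Dkk2, Nkd1 and Wnt6), against 5.21% of 17798 genes with an adjusted p (3.06% higher and 2.15% lower). With ashr-moderated fold changes Nkd1 dropped out, leaving 8 members against 4.12% of genes (2.51% higher and 1.61% lower). A permutation of 3 and 2 pools allows only 10 arrangements and no exact two-sided p below 0.2, so the adjusted p-values of genes come from models fitted across the whole table, edgeR's unless DESeq2 is named.

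**Figure D1:**
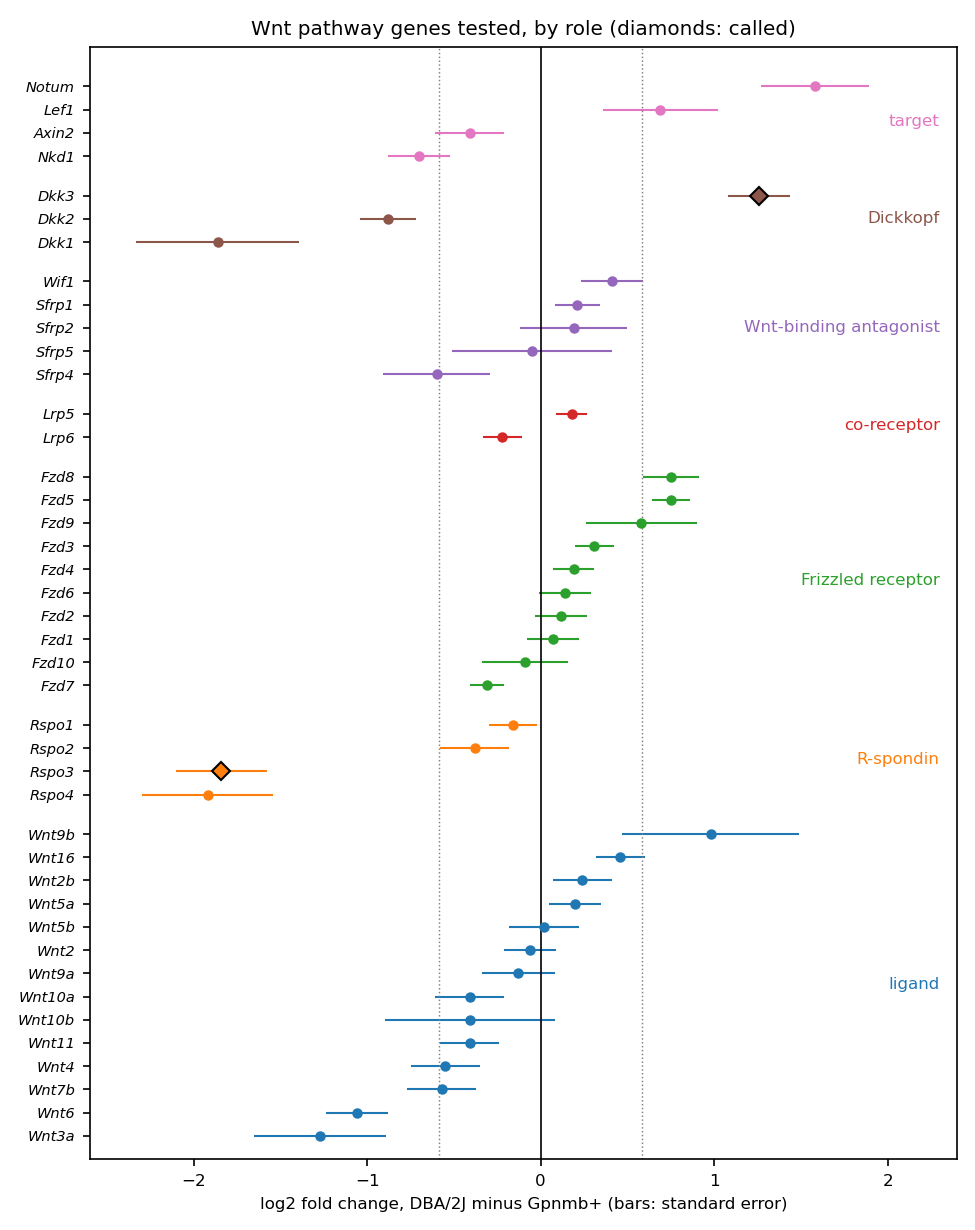
Log2 fold change (horizontal axis, DBA/2J minus Gpnmb+) of the 42 tested members, grouped by role, with the standard error from edgeR as bars, diamonds for the called genes and dotted lines at a fold change of 1.5. Dkk3 at 1.26 and Rspo3 at -1.84 are the called genes, and the 4 R-spondins all lie below 0.

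On the TPM scale, which corrects counts for gene length so that the levels of different genes can be compared, Dkk3 was the most abundant member in both strains, at 1393 ± 199.9 TPM (SD, n = 3) in DBA/2J and 592 ± 135 TPM (SD, n = 2) in Gpnmb+. Sfrp2 followed at 412 ± 153 TPM (SD, n = 3) in DBA/2J and 369 ± 36.6 TPM (SD, n = 2) in Gpnmb+, then Sfrp1 at 357 ± 56.3 TPM (SD, n = 3) in DBA/2J and 313 ± 22.8 TPM (SD, n = 2) in Gpnmb+. In DBA/2J the pools of Sfrp2 and Sfrp1 overlapped, so their order was not beyond their spread, whereas in Gpnmb+ they did not. Fzd1 was the most abundant receptor, at 186 ± 14.8 TPM (SD, n = 3) in DBA/2J and 181 ± 42.8 TPM (SD, n = 2) in Gpnmb+. Below it the order differed. In DBA/2J Fzd4 came next with 78.6 ± 12.5 TPM, followed by Fzd6, Lrp6, Dkk2, Wnt4 and Fzd7 between 61.0 and 51.8 TPM, neighbours whose pools overlapped. In Gpnmb+ Dkk2 came next with 105 ± 17.3 TPM, followed by Wnt4 and Fzd4, whose pools overlapped. Dkk3 alone made up 41.0 to 47.3% of the summed TPM of all members in the DBA/2J pools, against 28.4 and 22.8% in Gpnmb+ pools 1 and 2.

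**Figure D2:**
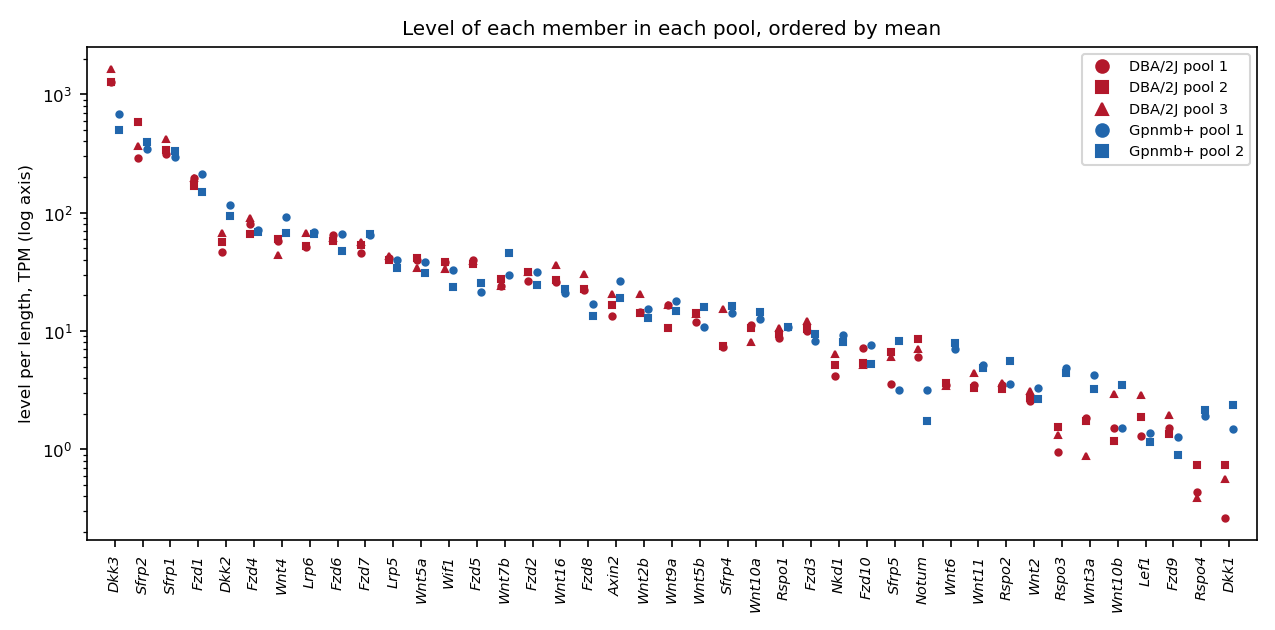
Level per length in TPM (log axis) of the 41 members with a mean of at least 0.3 TPM, in each of the 5 pools, ordered by the mean over pools. Dkk3, Sfrp2, Sfrp1 and Fzd1 are the 4 highest, and the red DBA/2J symbols lie above the blue Gpnmb+ symbols for Dkk3 and below them for Dkk2, Rspo3, Rspo4 and Dkk1.

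Summed by family, the ligands reached 215 ± 2.9 TPM (SD, n = 3) in DBA/2J and 254 ± 7.57 TPM (SD, n = 2) in Gpnmb+, and the R-spondins 14.9 ± 1.17 against 22.1 ± 1.27 TPM. The pools of both families were separate. The Frizzleds summed to 489 ± 34.9 against 455 ± 63.4 TPM and the Wnt-binding antagonists to 821 ± 163 against 731 ± 58.1 TPM, with overlapping pools. Without Dkk3, the Dickkopfs summed to 57.0 ± 10.7 TPM in DBA/2J and 107 ± 16.6 TPM in Gpnmb+, the opposite direction to Dkk3 itself. Abundant genes carry such sums. Among the ligands, Wnt4 (53.6 TPM in DBA/2J against 80.1 in Gpnmb+) and Wnt7b (25.1 against 37.8) differed most in TPM, and 5 of the 14 tested ligands had log2 fold changes above 0. Dkk2 made up nearly all of the Dickkopf sum without Dkk3, at 56.5 and 105 TPM. These sums are descriptions, do not show a shift of a whole family and were not tested.

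Of the 19 ligands, 14 were tested and none was called. Ligand levels were moderate, led by Wnt4, a ligand known from kidney and gonad development, with normalized counts of 3324, 3469.8 and 2349 in DBA/2J pools 1, 2 and 3, against 5095 and 3798 in Gpnmb+ pools 1 and 2. Its Gpnmb+ values lay above all DBA/2J values, with a log2 fold change of -0.55 (SE 0.20, adjusted p = 0.278). At an unadjusted p below 0.05 it missed the fold change minimum. Wnt5a, a noncanonical ligand, had overlapping pools at 3687, 3880 and 2943 against 3350.2 and 2770.4, and its log2 fold change was 0.20 (adjusted p = 0.58).

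The ligand closest to a call was Wnt6, which is known from epithelia. It had normalized counts of 113, 119 and 103 in DBA/2J pools 1, 2 and 3, against 217 and 248 in Gpnmb+ pools 1 and 2, with a wide gap between the strains and little spread within them. Its means were 111 ± 8.02 (SD, n = 3) against 233 ± 21.8 (SD, n = 2), and the log2 fold change was -1.06 (SE 0.18, adjusted p = 0.0674). Wnt6 and Wnt10a are neighbours on chromosome 1, Wnt6 at chr1:74810922-74824975 and Wnt10a at chr1:74830675-74844355 (GRCm39). Wnt10a had 547, 519 and 367 against 588 and 677, with every DBA/2J value below both Gpnmb+ values and a difference of -0.41 (adjusted p = 0.384) on the log2 scale. Wnt3a, a canonical ligand, was measured at low counts of 58.4, 56.1 and 26 in DBA/2J pools 1, 2 and 3, against 128 and 98.5 in Gpnmb+ pools 1 and 2. DBA/2J pool 3 was the lowest and the pools did not overlap, and the log2 fold change was -1.27 (SE 0.38, adjusted p = 0.199).

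Wnt7b and Wnt11 were also lower in every DBA/2J pool. Wnt7b, a canonical ligand of epithelia, had normalized counts of 1404, 1623 and 1304 against 1660 and 2616, a difference of -0.57 (adjusted p = 0.264) on the log2 scale, with Gpnmb+ pool 2 far above Gpnmb+ pool 1. Wnt11, a noncanonical ligand, had 202, 191 and 241 against 288 and 273, with a log2 fold change of -0.41 (adjusted p = 0.323). In the other direction Wnt16, a ligand known from bone, was higher in every DBA/2J pool with 1291, 1362 and 1675 against 1001 and 1094. Its log2 fold change was 0.46 (adjusted p = 0.2). Wnt9b had low normalized counts of 24, 9.71 and 18.7 against 9.13 and 8.52, separate by a narrow margin, while its raw counts of 23, 9 and 18 against 10 and 9 overlapped, with a log2 fold change of 0.98 (adjusted p = 0.411). Wnt2, Wnt2b, Wnt5b, Wnt9a and Wnt10b had overlapping pools and log2 fold changes between -0.41 and 0.24. Wnt5b shares 1244 exon bases with the antisense gene Fbxl14, which held 1455 to 1907 counts per pool, so its own level is uncertain. Wnt2, Wnt5b, Wnt7a, Wnt16 and Lrp6 lie on chromosome 6 with Gpnmb, at distances of 26.7 to 85.4 Mb from it.

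All 4 R-spondins had log2 fold changes below 0, with a median of -1.11, and 1 of them was called. Rspo3, an amplifier of canonical signalling located at chr10:29327285-29411876 (GRCm39, ENSMUSG00000019880), had normalized counts of 45.9, 75.5 and 59.2 in DBA/2J pools 1, 2 and 3, against 224 and 207 in Gpnmb+ pools 1 and 2. Both Gpnmb+ values were far above all DBA/2J values, and the spread within each strain was small beside the gap. The means were 60.2 ± 14.9 (SD, n = 3) against 216 ± 11.5 (SD, n = 2), a level 3.58-fold lower in DBA/2J with a log2 fold change of -1.84 (SE 0.26, adjusted p = 0.0475). With any of the 5 pools left out, the log2 fold change stayed between -2.03 and -1.68, but the adjusted p ran from 0.0873 to 0.158 and the call was lost each time. The call was also lost with the replicate number as a block (log2 fold change -1.86, adjusted p = 0.0748). DESeq2 called Rspo3 as well.

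Rspo4, a relative known from nail development, showed the same direction at lower counts, with 12.5, 21.6 and 10.4 in DBA/2J pools 1, 2 and 3, against 53 and 59.7 in Gpnmb+ pools 1 and 2. The pools did not overlap, and the log2 fold change of -1.92 (SE 0.38, adjusted p = 0.0885) missed the threshold. DESeq2's Wald test gave it an adjusted p of 0.00973. Rspo1 differed little, at normalized counts of 248, 269.8 and 281 against 296 and 299, with a log2 fold change of -0.16 (adjusted p = 0.645). Its pools did not overlap, by a narrow margin. Rspo2 had 497, 459.8 and 483 against 483 and 762, with a log2 fold change of -0.38 (adjusted p = 0.43), where only Gpnmb+ pool 2 stood above the rest.

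The Frizzled receptors were all tested and none was called, although 8 of the 10 had log2 fold changes above 0. Fzd5, a receptor known for its part in eye development, came closest. It had normalized counts of 3189.8, 2929 and 2907 in DBA/2J pools 1, 2 and 3, against 1633 and 1944 in Gpnmb+ pools 1 and 2, and the groups were well separated. The means were 3009 ± 157 (SD, n = 3) against 1788 ± 219.8 (SD, n = 2), with a log2 fold change of 0.75 (SE 0.11, adjusted p = 0.0501), just above the threshold. It overlaps an antisense gene, Gm38058, which held 3 to 8 counts per pool. Fzd5 was called with DESeq2's size factors in edgeR (adjusted p = 0.0484) and by DESeq2's Wald test (adjusted p = 8.6e-07). Fzd8 had 1513, 1578 and 1931 in DBA/2J pools 1, 2 and 3, against 1109 and 878 in Gpnmb+ pools 1 and 2, with all DBA/2J pools above both Gpnmb+ pools. Its log2 fold change was 0.75 (SE 0.16, adjusted p = 0.103).

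Fzd7 lay in the opposite direction, with normalized counts of 3037, 3629.6 and 3551 against 4135 and 4321, separate pools, and its log2 fold change was -0.31 (adjusted p = 0.234). Fzd3 was slightly higher in every DBA/2J pool, with 1527, 1567 and 1702 against 1201 and 1375, with a log2 fold change of 0.31 (adjusted p = 0.242). The receptors Fzd1, Fzd4 and Fzd6, abundant in both strains, were close to level. Fzd1 had 9328, 8196 and 8722 against 9684 and 6989.9, with a log2 fold change of 0.07 (adjusted p = 0.861), Fzd4 had a log2 fold change of 0.19 (adjusted p = 0.487) and Fzd6 had a log2 fold change of 0.14 (adjusted p = 0.718), all with overlapping pools, and without Gpnmb+ pool 2 the values for Fzd1 and Fzd6 turned to -0.15 and -0.08. Fzd2, Fzd9 and Fzd10 had log2 fold changes of 0.12, 0.58 and -0.09. Of these only Fzd9 had separate pools, at low normalized counts of 39.6, 35.6 and 47.8 against 32 and 22.7. Fzd10 shares 995 of its 3250 exon bases with the antisense gene Fzd10os, which held 35 to 83 counts per pool.

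The co-receptors moved little and in opposite directions. Lrp5 had normalized counts of 4665, 4504 and 4517 in DBA/2J pools 1, 2 and 3, against 4288 and 3753 in Gpnmb+ pools 1 and 2 and Lrp6 had 9076, 9295 and 11153 against 11578 and 11376. Both had pools that did not overlap, by narrow margins, and the log2 fold changes were 0.18 (SE 0.09, adjusted p = 0.384) for Lrp5 and -0.22 (SE 0.11, adjusted p = 0.407) for Lrp6.

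None of the 5 antagonists that bind Wnt proteins was called, and all had overlapping pools. Sfrp1 had normalized counts of 17247, 18801 and 21639.8 in DBA/2J pools 1, 2 and 3, against 15679 and 17601 in Gpnmb+ pools 1 and 2. DBA/2J pool 3 was the highest, and DBA/2J pool 1 lay below Gpnmb+ pool 2, with a log2 fold change of 0.21 (SE 0.13, adjusted p = 0.479). Sfrp2 had 7547, 15510.1 and 8995 against 8642 and 10071, where DBA/2J pool 2 stood far above the other 4 pools. Its coefficient of variation within DBA/2J was 39.7%, against a median of 14.1% over the tested members, and the log2 fold change of 0.19 (SE 0.31, adjusted p = 0.81) turned to -0.18 without that pool. Sfrp4 had 347, 363 and 680.3 against 650.1 and 755, with a log2 fold change of -0.60 (adjusted p = 0.411), with DBA/2J pool 3 at the Gpnmb+ level. Sfrp5 had a log2 fold change of -0.05 (adjusted p = 0.971) and Wif1 0.41 (adjusted p = 0.336).

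The 3 tested Dickkopfs all had separate pools, as 34.5% of all tested genes did, and they did not share a direction. Dkk3, a divergent secreted Dickkopf that unlike Dkk1 is not a classical Lrp6 blocker, is located at chr7:111712904-111758760 (GRCm39, ENSMUSG00000030772). It had normalized counts of 99832, 100929 and 118484 in DBA/2J pools 1, 2 and 3, against 51475 and 37643 in Gpnmb+ pools 1 and 2. All DBA/2J pools were well above both Gpnmb+ pools, and Gpnmb+ pool 2 was the lowest. The means were 106415 ± 10467 (SD, n = 3) against 44559 ± 9781 (SD, n = 2), a level 2.39-fold higher in DBA/2J with a log2 fold change of 1.26 (SE 0.18, adjusted p = 0.0494). With another count filter (filterByExpr) the call was lost at a log2 fold change of 1.25 (adjusted p = 0.0504). Leaving out 1 pool at a time kept the log2 fold change between 1.05 and 1.50. The call was kept without Gpnmb+ pool 1 (adjusted p = 0.0432) and lost without any other pool, with an adjusted p of up to 0.16.

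Dkk2, which blocks or weakly activates canonical signalling depending on context, had normalized counts of 2234, 2752 and 3043 in DBA/2J pools 1, 2 and 3, against 5454 and 4374 in Gpnmb+ pools 1 and 2. Both Gpnmb+ values exceeded all DBA/2J values. The means were 2676 ± 409.7 (SD, n = 3) against 4914 ± 764 (SD, n = 2), with a log2 fold change of -0.88 (SE 0.16, adjusted p = 0.0784). DESeq2's Wald test gave an adjusted p of 0.000177. Dkk1, the classical Lrp6 blocker, was detected at only raw counts of 7, 19 and 14 against 43 and 67, all DBA/2J values below the Gpnmb+ values, and its log2 fold change was -1.86 (SE 0.47, adjusted p = 0.147). The ratio of Dkk3 to Dkk2 in TPM was 27.7, 22.8 and 24.2 in DBA/2J pools 1, 2 and 3, and 5.86 and 5.34 in Gpnmb+ pools 1 and 2. This pair was chosen after both genes were seen to differ in opposite directions, which fixes the separation of the ratio, so it is given as a description.

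**Figure D3:**
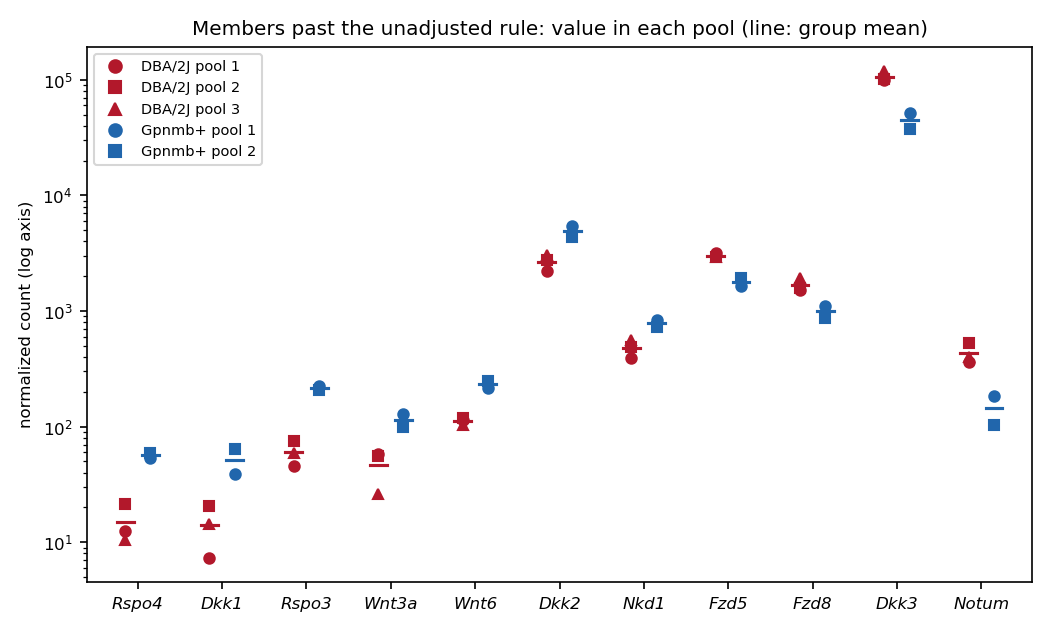
Normalized count in each pool (log axis) of the 11 members that passed edgeR's threshold before adjustment of p, with red for DBA/2J, blue for Gpnmb+ and short lines for group means. In each of these genes the DBA/2J and Gpnmb+ pools do not overlap, with Dkk3 between 99832 and 118484 in DBA/2J and at 51475 and 37643 in Gpnmb+.

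The 4 readouts of the pathway were split, 2 above and 2 below 0, and none was called. Axin2, a feedback scaffold of the beta-catenin destruction complex, had normalized counts of 1057, 1342 and 1519 in DBA/2J pools 1, 2 and 3, against 2024 and 1448 in Gpnmb+ pools 1 and 2. DBA/2J pool 3 lay above Gpnmb+ pool 2, and the log2 fold change was -0.41 (SE 0.20, adjusted p = 0.386). Nkd1, a feedback inhibitor acting on Dishevelled, had 389.7, 490 and 564 in DBA/2J pools 1, 2 and 3, against 832 and 734 in Gpnmb+ pools 1 and 2, with separate pools. Its means were 481 ± 87.4 (SD, n = 3) against 783 ± 69.2 (SD, n = 2), and its log2 fold change was -0.70 (SE 0.18, adjusted p = 0.147).

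Notum, a secreted enzyme that removes the lipid from Wnt proteins, lay in the other direction. It had normalized counts of 365, 525 and 402 in DBA/2J pools 1, 2 and 3, against 184 and 103 in Gpnmb+ pools 1 and 2, and every DBA/2J pool was above both Gpnmb+ pools. The means were 430.4 ± 83.6 (SD, n = 3) against 144 ± 57.4 (SD, n = 2), with a log2 fold change of 1.58 (SE 0.31, adjusted p = 0.0867), the largest positive value among the members. DESeq2's Wald test gave an adjusted p of 5.7e-05. Notum shares 2037 of its 5317 exon bases with the antisense gene Notumos and also overlaps the antisense gene Myadml2os. Notumos held 7 to 28 counts per pool and Myadml2os at most 1. Nothing says whether counting used strand, so reads of these genes cannot be told apart. Lef1, a transcription factor of the pathway and also its target, had 138, 202 and 287 against 139.7 and 119 with overlapping pools, since DBA/2J pool 1 was at the Gpnmb+ level. Its log2 fold change was 0.69 (SE 0.33, adjusted p = 0.379), and it shares 1518 exon bases with the antisense gene Lef1os1, which held 3 to 7 counts per pool.

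Ratios of pairs of members within a pool do not depend on library scaling. Notum over Nkd1, in TPM, was 1.45, 1.66 and 1.11 in DBA/2J pools 1, 2 and 3, and 0.344 and 0.218 in Gpnmb+ pools 1 and 2. Axin2 over Nkd1 was 3.23, 3.26 and 3.21 against 2.90 and 2.35. Rspo3 over Rspo1 was 0.108, 0.164 and 0.123 against 0.443 and 0.406. Fzd5 over Fzd7 was 0.888, 0.682 and 0.692 against 0.334 and 0.380. Sfrp1 over Sfrp2 overlapped, since both Gpnmb+ ratios (0.865 and 0.833) lay between those of DBA/2J pool 1 (1.09) and DBA/2J pool 2 (0.578). These pairs were chosen after their values were seen and are given as descriptions.

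**Figure D4:**
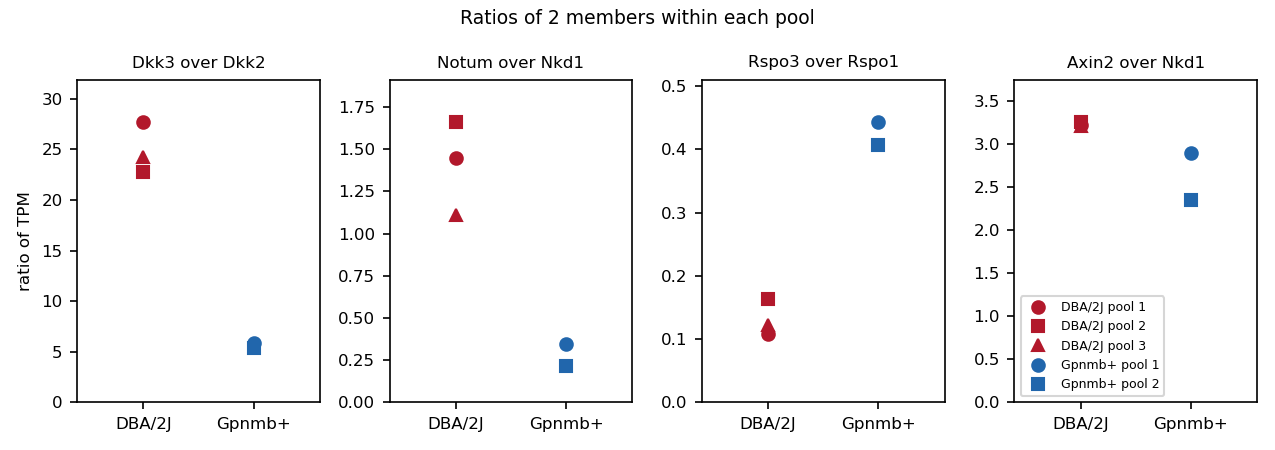
Ratios of the TPM of pairs of members within each pool (vertical axes start at 0), with DBA/2J in red and Gpnmb+ in blue. The strains are separate in all 4 panels, whose pairs were chosen after their values were seen, and the Axin2 to Nkd1 ratio is nearly the same in the 3 DBA/2J pools (3.21 to 3.26).

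TCF and LEF factors bind short sites that read CTTTG followed by AA, AT, TA or TT. These letters were searched on both strands of promoter windows from 250 bases before to 50 bases after gene starts, from RefSeq (GRCm38.p6). Windows were given for 31 of the 48 members, and 6 of their 37 windows (16.2%) held the letters, against 5544 of 32851 windows (16.9%) in the whole table. Of the further targets listed outside the set, 3 of 6 windows did. The members with a match were Dkk1, Fzd7, Lef1, Wnt3, Wnt5b and Wnt11. No window was given for Dkk3, Rspo3 or Notum, and those of Axin2 and Nkd1 held no match. Dkk1, a feedback target of the pathway and the member whose window held 2 matches, and Lef1, a readout with a match in 1 of its 4 windows, are shown 5′ to 3′ on the gene's strand with the matching letters in capitals. The Dkk1 stretch lies on the minus strand at chr19:30549580-30549639 and the Lef1 stretch on the plus strand at chr3:131156121-131156180, where the capitals are a match read on the opposite strand.
Dkk1: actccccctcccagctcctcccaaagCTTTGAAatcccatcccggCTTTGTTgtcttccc
Lef1: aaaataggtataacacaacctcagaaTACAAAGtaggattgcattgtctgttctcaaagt
In these counts Dkk1 was lower in every DBA/2J pool and Lef1 was not. A match is a description of letters and not a site in use.

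Genes of the pathway outside the set were taken from a list of 60, of which 57 were tested. Apcdd1 was the single one called. It is a membrane inhibitor that binds Wnt and Lrp5, and it had normalized counts of 3071, 3185 and 2999 in DBA/2J pools 1, 2 and 3, against 1781 and 1316 in Gpnmb+ pools 1 and 2, well separated between the strains. Its log2 fold change was 0.99 (SE 0.14, adjusted p = 0.0494), 1.99-fold higher in DBA/2J, and the call was kept with Gpnmb+ pool 1 left out (adjusted p = 0.0235) and lost without any other pool, with the replicate number as a block (adjusted p = 0.0584) and with the CPM of Ddx3y as a covariate (adjusted p = 0.574). The median over the 57 genes was 0.06, 35 were above 0 and 22 below, and pools did not overlap in 29 (50.9%). Over all tested genes 0.796% were called, 47.4% were above 0 and pools did not overlap in 34.5%.

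Neither gene for the secretion of Wnt proteins was called, with log2 fold changes of 0.06 (adjusted p = 0.794) for the carrier Wls and 0.40 (adjusted p = 0.349) for the acyltransferase Porcn. Among 11 further receptors none was called, and the smallest p-values belonged to Lrp4 at 0.47 (adjusted p = 0.138), the receptor kinase Ror1 at 0.43 (adjusted p = 0.164) and the R-spondin receptor Lgr4 at 0.33 (adjusted p = 0.205). None of the 21 transducers in cytoplasm and nucleus was called either, and their log2 fold changes lay between -0.25 and 0.51. Ctnnbip1, which keeps beta-catenin from TCF factors, had normalized counts of 1367, 1365 and 1369.9 against 969 and 949, with a log2 fold change of 0.51 (adjusted p = 0.0689), very even within each strain. Tle3 had a log2 fold change of -0.24 (adjusted p = 0.247) and Apc -0.25 (adjusted p = 0.326). Among 10 tested further targets none was called, with Bambi at 0.62 (adjusted p = 0.0858), Ccn5 at 0.70 (adjusted p = 0.204) and Tnfrsf19 at -0.25 (adjusted p = 0.315).

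Marker lists of other cell types also differed between the strains. Of 12 markers of the nonpigmented ciliary epithelium, a layer of the ciliary body that was removed at dissection, 11 had log2 fold changes above 0, 3 were called higher and Cldn10 was called lower in DBA/2J. Their summed level was 1964 to 2554 CPM in the DBA/2J pools and 1149 to 1431 CPM in the Gpnmb+ pools, and none was at 0. The summed level of this list, Dkk3, Fzd5, Fzd8, Notum and Apcdd1 were all higher in every DBA/2J pool. Dkk3, Fzd8, Notum, Apcdd1 and the summed level of this list were lowest in Gpnmb+ pool 2. Fzd5 was instead lowest in Gpnmb+ pool 1, and single markers such as Cldn10, Atp1b2 and Slc4a4 were not lowest in Gpnmb+ pool 2 either. All 8 tested of 9 listed markers of the trabecular meshwork had log2 fold changes below 0, and Lmx1b was among those called lower. Their summed level was 2980 to 3569 CPM in DBA/2J and 4499 to 4518 CPM in Gpnmb+, with none at 0, and Rspo3, Rspo4, Wnt6, Dkk1, Dkk2 and Nkd1 were lower in the same pools. The Schwann cell markers, 2 of 9 called lower and 7 of 9 below 0, also summed to less in every DBA/2J pool, at 429 to 493 CPM against 515 and 560.5 CPM. In the other direction, the keratocyte and scleral fibroblast markers summed to 4601 to 5269 CPM in DBA/2J against 3905 and 3162 CPM, and the cartilage markers to 111 to 133 CPM against 81.7 and 81.6 CPM, both sums higher in every DBA/2J pool. The members of these lists did not move together. Of the 8 keratocyte and scleral fibroblast markers 5 had log2 fold changes above 0 and 3 below, with a median of 0.01, from 0.99 for Col1a1 and 0.73 for Col1a2 to -1.09 for the keratocyte proteoglycan gene Kera. Of the 6 tested cartilage markers 4 were above 0 and 2 below, with Col2a1 at 1.90 and Matn3 at 1.02 against Cnmd at -1.08. The Wnt pathway genes set beside these lists were named for their separate pools, so a shared direction with a separate sum was fixed beforehand. The part of any of these cell types in the differences was not tested.

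Markers of the corneal and limbal epithelium summed to 6873 to 11108 CPM in DBA/2J and 10858 to 12360 CPM in Gpnmb+, and none of the 8 tested of 9 listed was called. Krt12, the keratin of differentiated corneal epithelium, had raw counts of 11298, 4970 and 421 against 86337 and 27106. Wnt3a and Wnt4 had their lowest value in DBA/2J pool 3 and their highest in Gpnmb+ pool 1, the same pools as Krt12 and the summed level of the list, while Krt14, Krt15, Aldh3a1 and Cldn4 were each highest in another pool. Photoreceptor markers were highest in Gpnmb+ pool 2 at 2026 CPM, against 373 to 909 CPM elsewhere. Wnt7b and Rspo2 had their highest value in that pool, which was not particular to them. Wnt5b, Wnt6, Wnt10a, Wnt10b, Rspo1, Rspo4, Dkk1, Sfrp4, Sfrp5 and Fzd7 were highest there too. Skeletal muscle markers were highest in DBA/2J pool 3 at 462 CPM, against 134 to 237 CPM elsewhere. Of 9 pigment cell markers 1 was called lower. No single marker of lens, keratocytes, endothelium, smooth muscle, skeletal muscle, cartilage, macrophages or photoreceptors was called. Without adjustment, 3 of 6 tested cartilage markers passed on the higher side and 1 (Cnmd) on the lower, and 2 of 8 keratocyte and scleral fibroblast markers on the higher side and 1 (Kera) on the lower. Whether carried-over tissue contributed to any of these values was not tested.

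**Figure D5:**
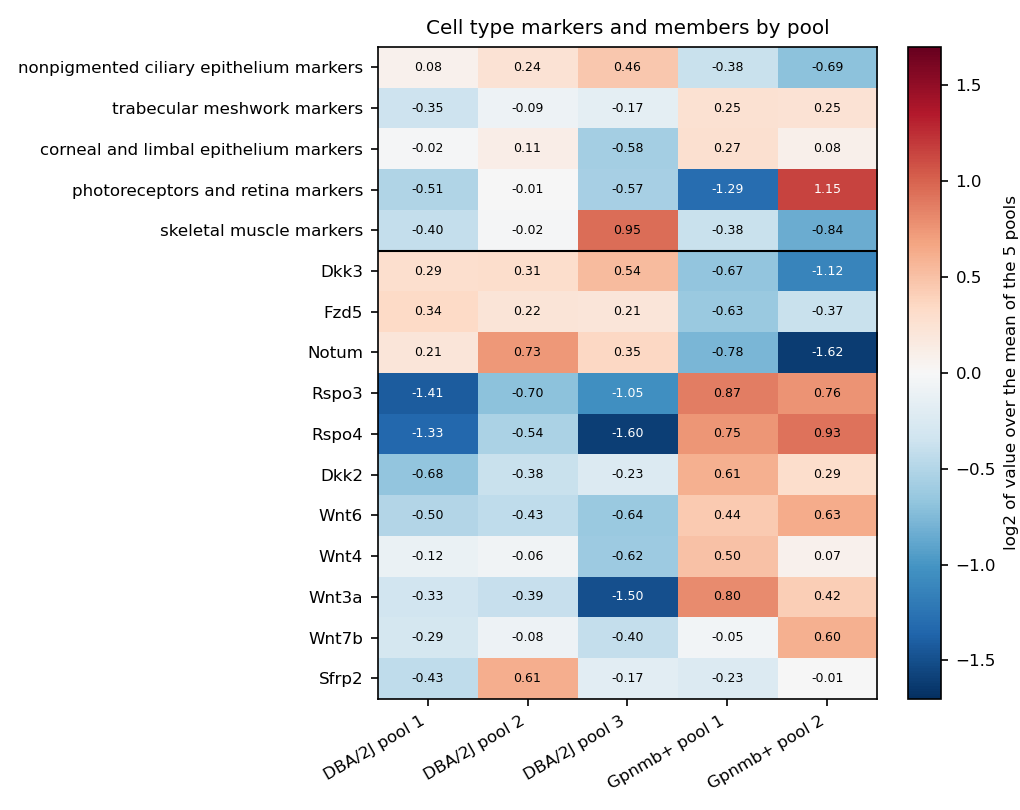
Log2 of each value over the mean of the 5 pools, for the summed CPM of 5 marker lists (above the line) and the normalized counts of 11 members (below it), with red above and blue below the mean. Dkk3, Fzd5 and Notum are red in the DBA/2J pools like the nonpigmented ciliary epithelium markers, and Rspo3, Rspo4, Dkk2 and Wnt6 are red in the Gpnmb+ pools like the trabecular meshwork markers. These members were named for their separate pools, which fixes the likeness to any list whose sums separate the same way. The sums of the keratocyte and scleral fibroblast, cartilage and Schwann cell lists also separate and are not drawn.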

How the data were processed

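RNA from 3 DBA/2J and 2 Gpnmb+ pools was sequenced. Per the study's methods and the submitters' processing notes, reads were trimmed (fastp) and aligned to GRCm39 (STAR), and the authors deposited the raw count of uniquely mapped reads on each gene, not normalized. Tool versions and the strand used in counting are not given in the sources used here. The members and gene lists were chosen with earlier results of these data known. Gene positions, names and exon lengths for TPM came from GENCODE release M39.

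A gene needed 10 counts or more in 1 or more pools to be tested. The test was run with edgeR 4.0.16 (quasi-likelihood, TMM scaling, no covariate, R 4.3.3, limma 3.58.1) over all 5 pools. SEs were derived from the F statistic. Tables were made with Python 3.11.15 and pandas 2.3.3. The common biological coefficient of variation was 20.7%. The fit was tested on simulated data of 3 and 2 libraries at a dispersion of 0.02, a smaller spread than that of these pools. It recovered 98 of 100 genes changed 2-fold and 100 of 100 changed 4-fold, with 10 false calls among 19062 genes. How the fit performs at the spread of these pools was not tested. Named members were those called, those past the unadjusted threshold, the 10 of highest TPM, the readouts and the co-receptors, and from each further list those called or otherwise up to 3 of smallest p. Other members are given by values or ranges. Alternatives were DESeq2 1.42.0 with and without ashr 2.2.63, DESeq2's size factors, other count filters, a replicate block, other thresholds and each pool left out. P-values measure the spread between pools, each an average over several mice. Some marker results are not reported here.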

Additional observations from a re-analysis of the deposited data

How the results depend on the processing

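The 2 calls among the members rest on few pools and on the threshold. The number of members called higher in DBA/2J was 1, and it became 2 with DESeq2's size factors in edgeR (Fzd5 added), 4 with DESeq2's Wald test, 4 with ashr moderation, 3 without the count filter, 4 at unadjusted p, 0 with filterByExpr (Dkk3 at adjusted p = 0.0504), 0 with Ddx3y as covariate, and 0 to 1 with single pools left out. The number called lower was 1, and it became 5 with the Wald test, 4 with ashr, 2 without the count filter, 7 at unadjusted p, 0 with the replicate block, 0 with Ddx3y as covariate, and 0 in every fit with a pool left out. The number of further pathway genes called was 1, and it became 5 with the Wald test, 2 with ashr, 2 without the count filter, 7 at unadjusted p, 0 with Ddx3y as covariate, and 0 to 2 with single pools left out. Over all tested genes 157 were called, and 165 with DESeq2's size factors, 927 with the Wald test, 734 with ashr, 158 with filterByExpr, 360 without the count filter, 220 with the replicate block, 1710 at unadjusted p, 3 with Ddx3y as covariate and 1 to 217 with single pools left out. The median log2 fold change of the members, -0.06, became 0.04 with Ddx3y as covariate and ran from -0.06 to 0.04 with single pools left out, where 0.04 was without Gpnmb+ pool 1. Signs turned with Ddx3y as covariate for Sfrp2 (-0.51), Lrp6 (0.11) and Porcn (-0.12). With single pools left out, the log2 fold change ran from -0.18 to 0.39 for Sfrp2, -0.15 to 0.33 for Fzd1, -0.08 to 0.39 for Fzd6 and -0.01 to 0.14 for Wls. No other gene named by the rule changed sign. The cause of these changes was not tested. Removing the fold change minimum changed no call among the members.

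Pool numbers are shared between the strains but nothing says that they pair the pools. Deviations from the group means correlated across genes at 0.279 for both pools numbered 1 and 0.254 for both numbered 2, from only 2 pairs, so the numbers were not taken as pairs. With the replicate block Dkk3 stayed called (log2 fold change 1.19, adjusted p = 0.0452), Rspo3 did not (-1.86, adjusted p = 0.0748), nor did Apcdd1 (1.03, adjusted p = 0.0584), while Ccn5 was called (0.83, adjusted p = 0.04). No other gene named by the rule changed its call under the block. Genes near the floor of 3 counts, such as Wnt1, are beyond what this depth can compare. With a single Gpnmb+ pool left in, that pool is assumed to vary like the DBA/2J pools.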
